A study of Zea mays with 6 samples.

Results

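Chromatin genes of maize were named by a scheme in which 3 letters give the protein class and a number counts its members, as in nfa101 or hda101. Genes whose symbol or RefSeq synonym has exactly this form, without the prefixes of map markers, numbered 57 of the 1108 genes that the array annotation pairs with a probe set of 1 gene. Of these, 54 carry a chromatin prefix and fall into 15 classes, with numbers from 101 to 123. The other 3 match by form alone and are no chromatin proteins: hcf106, which acts in protein transport into the thylakoid, hsp101, a heat shock protein, and IDP154, which is dxr of the plastid isoprenoid pathway. Each gene was represented by the probe set with the highest mean, and 8 genes matched by symbol while 49 matched by synonym only.

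Leaf 3 of the maize inbred line A661 was sampled after 3 weeks at 15 °C followed by 1 week at 25 °C, when its distal end lacked chlorophyll (CL) and its proximal end was green (CC). From either side of the border 2 cm were taken, giving 3 biological replicates of CL and 3 of CC, the control, on 6 Affymetrix arrays. No label names a mutation, a transgene or a chemical treatment, and both sections went through the same cold and warm periods. The light given was the same for all 6 samples, 228 µmol per square metre and second for 14 h, with 10 h of dark. The distal section was the CL section on every array, so chlorophyll content, position and growth history along the leaf cannot be told apart. The labels do not say whether CL and CC of 1 number came from the same plant. Values are log2 RMA values, on which a difference of 1 is a 2-fold change. Levels of different probe sets do not rank their transcripts by abundance. The photosynthesis transcripts pep1 and rbcs1 were bright in both sections. The mean of pep1, of the mesophyll, was 13.3 in CL and 13.2 in CC, and that of rbcs1, of the bundle sheath, 12.8 in CL and 12.9 in CC. Not all transcripts of these cell types were alike, as ppt1 (0.75, CL minus CC) and rca1 (-0.32) differed between the sections.

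DNA in the nucleus is wound on histones into nucleosomes. Histone chaperones load and remove histones when DNA is copied or transcribed, linker histones and HMG-box proteins bind around the nucleosome, and acetyltransferases and deacetylases add and remove acetyl groups on histone tails. SET-domain proteins methylate histones, DNA methyltransferases methylate cytosine, and bromodomain and methyl-CpG-binding proteins bind the marks so made.

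Setting CL against CC asks how these transcripts differ between leaf tissue without and with chlorophyll. Of the 57 genes, 15 were higher in CL, 2 were lower and 40 did not pass, at a limma adjusted p under 0.05 over all probe sets. All 15 rises were of chromatin-named genes. The largest were those of the nucleosome assembly factors nfa101, nfa103 and nfa104, and nfa102 of the same class rose too. The falls were those of nfd101, an HMG-box gene, and of IDP154. Over all 17555 probe sets, 15.9% were higher and 15.2% lower in CL, and among the 1108 genes 18.7% were higher and 19.9% lower, together 38.6%. The members stood at 26.3% higher and 3.51% lower. In sum 29.8% of the members were called, near the 31.1% of all probe sets, and below the 38.6% of all named genes, so the share called is no result about these genes. Their called genes were mostly rises (88.2%), where 51.1% of all called probe sets were rises; this split was not tested. The median log2 change (CL minus CC) was 0.17 over the 57 genes, -0.08 over the 1108 genes and -0.05 over all probe sets. At an unadjusted limma p under 0.05, 3772 of the 17555 probe sets were higher in CL and 4053 lower. Of the 1108 genes 260 were higher and 318 lower, and of the 57 genes 23 and 4. These counts are the background for the unadjusted counts of classes and lists below, which were not tested. Of the changes, 1 rise (nfa101) and 1 fall (nfd101) reached 2-fold, as did 3.11% (higher) and 2.56% (lower) of all probe sets. In bulk tissue, a higher share of cells that express a gene and more RNA per cell cannot be told apart. The count of rises moved with the array left out. It was 7 without CL replicate 2, 4 without CL replicate 3, 7 without CC replicate 2 and 8 without CC replicate 3. Without CL replicate 1 it was 16, and without CC replicate 1 it was 18. The falls were 1 without CL replicate 2, CL replicate 3 or CC replicate 2. They were 2 without CC replicate 1 or CC replicate 3, and 3 without CL replicate 1. Calls over all probe sets in these fits are not given here. A loss of power with fewer arrays can therefore not be told apart from dependence on an array. With the replicate number as a block, 3 genes were higher and 1 was lower. The genes nfa101, nfa102, nfa103, nfa104 and nfd101 passed in every one of the 6 fits with 1 array left out. The other 12 called genes each lost their call in at least 1 of these fits, with limma adjusted p of 0.0504 to 0.126. For gtc102, hda102, brd103, sdg118, SDG123, dmt106 and IDP154 this held without CL replicate 2, CL replicate 3, CC replicate 2 or CC replicate 3. It held for nfc101 without CL replicate 2, CL replicate 3 or CC replicate 2, and for hdt102 without CL replicate 2, CL replicate 3 or CC replicate 3. For mbd108 it was CL replicate 3 or CC replicate 2, and for hdt103 and sgb102 CL replicate 3.

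**Figure D1:**
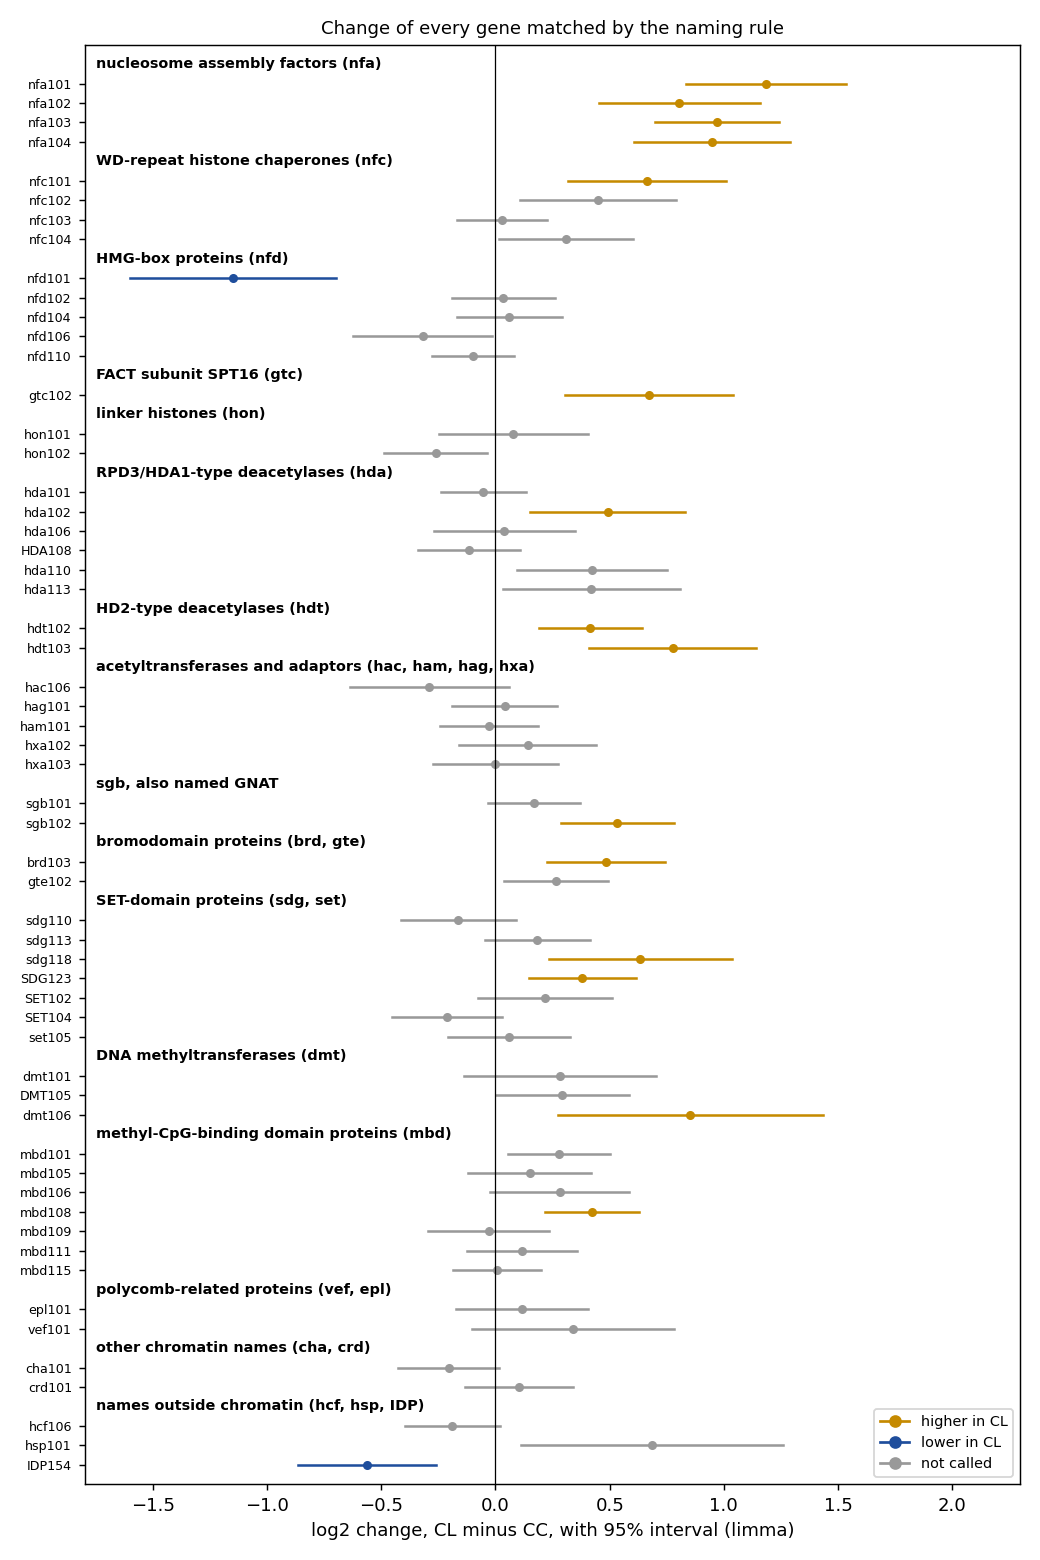
Log2 change (CL minus CC, x axis) of each of the 57 genes with its 95% interval from limma, grouped by class; orange genes were higher and blue genes lower in CL at an adjusted p under 0.05, and grey genes did not pass. The 4 nfa genes lie between 0.81 and 1.18, and nfd101 stands apart at -1.15.

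Nucleosome assembly factors of the nfa class belong to the NAP family of histone chaperones, which carry core histones and help place them on DNA. All 4 members rose in CL. The log2 values of nfa101 (NCBI gene 542113) were 8.42, 8.79 and 8.73 on the CL arrays, against 7.70, 7.41 and 7.27 on the CC arrays. Every CL array stood above every CC array, with means of 8.65 ± 0.20 for CL and 7.46 ± 0.22 for CC (SD over 3 arrays each). The log2 change was 1.18 (SE 0.15), a 2.27-fold difference, with a limma adjusted p of 0.00327.

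The gene nfa103 (NCBI gene 541933) read 8.28, 8.21 and 8.46 in CL, against 7.44, 7.43 and 7.16 in CC. For nfa104 (NCBI gene 542654) the values were 8.44, 8.47 and 8.70 in CL and 7.73, 7.73 and 7.30 in CC. The sections were clearly apart in both genes, and the lowest CL array exceeded the highest CC array. Log2 changes were 0.97 (SE 0.12) for nfa103 and 0.95 (SE 0.14) for nfa104, with limma adjusted p of 0.00299 and 0.00545. A second probe set of nfa104, on which the gene read 6.89, 6.75 and 6.94 in CL and 6.05, 6.01 and 5.74 in CC, gave a change of 0.92 (SE 0.11). Thus both probe sets of nfa104 passed and gave nearly the same change.

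The smallest rise of the class was that of nfa102 (NCBI gene 542588), at 8.96, 9.41 and 9.17 in CL and 8.58, 8.20 and 8.35 in CC. Its sections did not overlap either, and its change was 0.81 (SE 0.15; limma adjusted p = 0.00927). The 95% intervals of the 4 genes reach from 0.45 to 1.53, and overlap one another; differences between the 4 genes were not tested.

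Members of the nfc class are WD-repeat proteins that bind histones as parts of assembly, deacetylase and polycomb complexes. Of 4 genes, nfc101 (NCBI gene 542087), also named rbap2, rose. It read 7.87, 8.31 and 8.23 in CL, against 7.65, 7.31 and 7.45 in CC. CL replicate 1 and CC replicate 1 came closest to each other, 0.22 apart, without overlap. The change was 0.66 (SE 0.15; limma adjusted p = 0.0161), and the adjusted p was 0.0540 to 0.0672 without CL replicate 2, CL replicate 3 or CC replicate 2.

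The other 3 nfc genes had positive changes that did not pass. The 3 probe sets of nfc102 gave changes of 0.45, 0.52 and 0.35, with limma adjusted p of 0.0531, 0.0562 and 0.181. The gene nfc104 lay near the dim end of the arrays and had a change of 0.31. The gene with the smallest change, nfc103, read 9.79, 9.83 and 9.79 in CL and 9.88, 9.71 and 9.73 in CC. Its sections overlapped, and the 95% interval of its change, from -0.17 to 0.22, holds no change as large as that of nfc101.

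The nfd class holds HMG-box proteins, which bend DNA or bind at nucleosomes. Of 5 genes, 1 fell and 0 rose by limma, with 2 lower and 0 higher at an unadjusted p under 0.05. The gene that fell, nfd101 (NCBI gene 542658), read 5.36, 4.93 and 4.89 in CL, against 5.89, 6.23 and 6.51 in CC. Every CL array was below every CC array, and the means were 5.06 ± 0.26 for CL and 6.21 ± 0.31 for CC (SD over 3 arrays each). The log2 change was -1.15 (SE 0.19), 2.22-fold lower in CL, with a limma adjusted p of 0.00687.

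The HMG-box gene nfd102, also named HMGe, read 8.86, 8.87 and 9.09 in CL and 8.96, 8.84 and 8.92 in CC. Values of nfd104, also named hmg2, were 8.89, 8.83 and 9.03 in CL and 8.94, 8.89 and 8.74 in CC. Both genes overlapped between the sections. Their changes of 0.03 and 0.06 turned below 0 after a further quantile normalization, and that of nfd102 also after median centring and without CL replicate 3. A second probe set of nfd104 gave 0.19 and did not pass. The dim gene nfd106 read 3.43, 3.27 and 3.01 in CL and 3.44, 3.68 and 3.56 in CC, a change of -0.32 (95% interval -0.62 to -0.01) that did not pass. The probe sets used for nfa104, nfd101 and nfd104 have identifiers ending in _s_at, which Affymetrix gives to sets whose probes match more than 1 transcript, so related transcripts may share their signal.

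**Figure D2:**
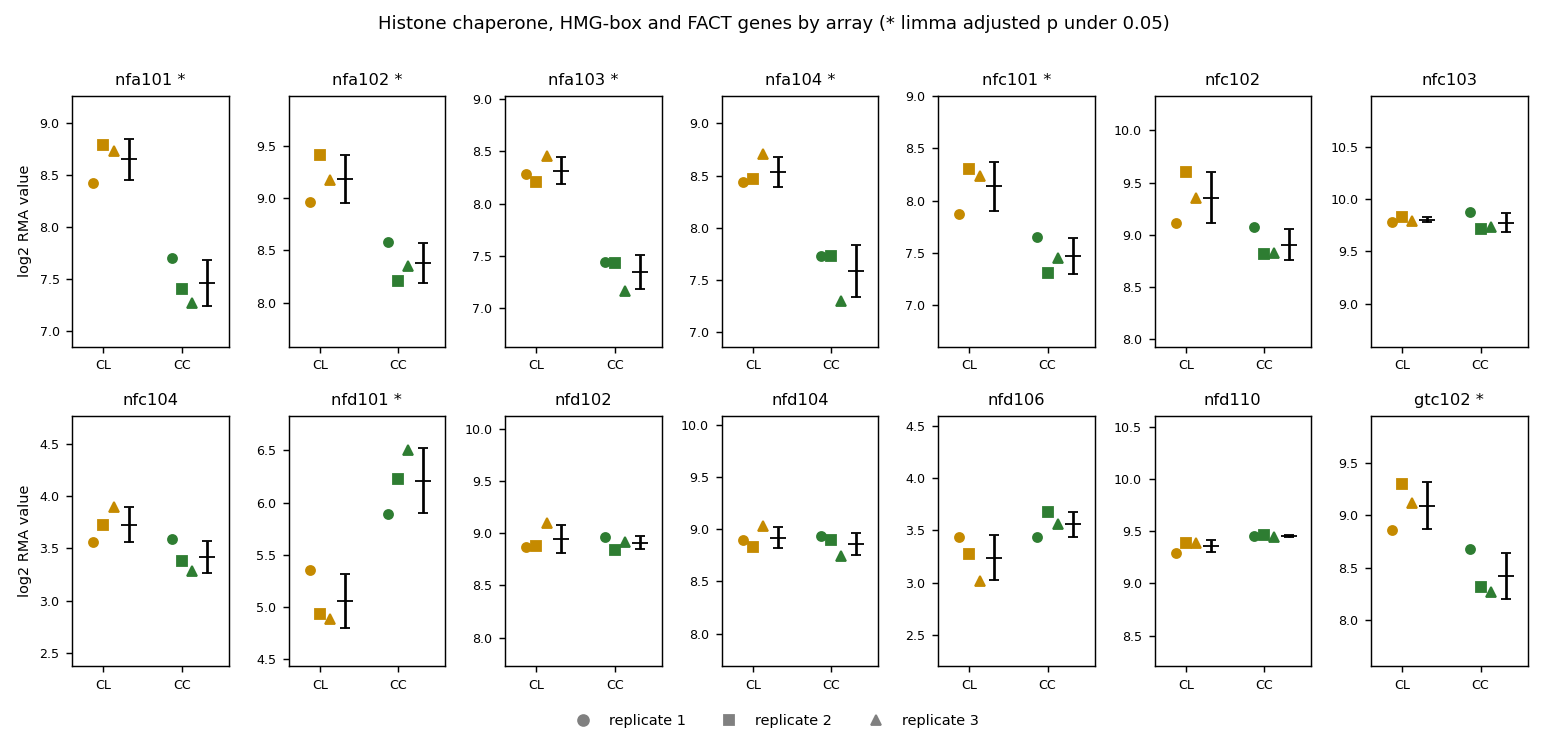
Log2 RMA values (y axis) of the nfa, nfc, nfd and gtc genes, with 3 CL arrays left and 3 CC arrays right in each panel; marks show replicate numbers, black bars the mean ± SD, and each panel spans the same log2 range. The CL arrays of all 4 nfa genes lie above their CC arrays, those of nfd101 lie below, and the change of nfd110 is -0.10, beside 0.67 for gtc102.

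FACT is a histone chaperone made of the proteins SPT16 and SSRP1 that lets polymerases pass nucleosomes. The array holds both parts, gtc102 (NCBI gene 542546, SPT16) and nfd110 (NCBI gene 542007, ssrp1). The SPT16 gene read 8.86, 9.30 and 9.12 in CL, against 8.68, 8.32 and 8.27 in CC. It rose by 0.67 (SE 0.16; limma adjusted p = 0.0191) without overlap between the sections.

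The SSRP1 gene read 9.29, 9.39 and 9.39 in CL and 9.46, 9.46 and 9.45 in CC. Its CL arrays all lay slightly below its CC arrays, with a change of -0.10 (95% interval -0.28 to 0.08; limma adjusted p = 0.355). The interval of nfd110 lies below the change measured for gtc102, though a difference between the 2 genes was not tested. The rise of gtc102 did not pass without CL replicate 2, CL replicate 3, CC replicate 2 or CC replicate 3, with adjusted p up to 0.0710.

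Linker histones close the nucleosome from outside. Of the 2 hon genes, 0 passed by limma in either direction, and 0 were higher and 1 lower at an unadjusted p under 0.05. The gene hon102, also named his1a, had a change of -0.26 (95% interval -0.49 to -0.04), with all CL arrays below the CC arrays. For hon101 the change was 0.08 (95% interval -0.25 to 0.40).

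Histone deacetylases of the hda class remove acetyl groups from histones, and 1 of 6 genes rose in CL. That gene, hda102 (NCBI gene 541953), read 7.34, 7.75 and 7.65 in CL, against 7.25, 7.13 and 6.88 in CC. The sections did not overlap, but replicate 1 of each lay only 0.09 apart. The change was 0.49 (SE 0.14; limma adjusted p = 0.0397), with an adjusted p of 0.0547 after median centring, 0.0719 after quantile normalization and 0.0926 to 0.126 without CL replicate 2, CL replicate 3, CC replicate 2 or CC replicate 3.

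Close in size and short of the threshold was hda110, at 7.37, 7.77 and 7.42 in CL and 7.28, 6.97 and 7.04 in CC, a change of 0.42 (limma adjusted p = 0.0573). The gene hda113 read 8.01, 8.35 and 8.19 in CL and 8.06, 7.75 and 7.48 in CC, where CC replicate 1 fell inside the CL range. Its change was 0.42 with an adjusted p of 0.0914. A dimmer probe set of hda113 had a change of 0.80 (SE 0.21) and passed (limma adjusted p = 0.0288), and the dimmest gave -0.04. The rise of hda113 therefore depends on which probe set stands for it.

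Changes of the other 3 deacetylases were small. The gene hda101, also named rpd3, read 9.72, 9.58 and 9.65 in CL and 9.69, 9.71 and 9.71 in CC. HDA108, also named hd1b, read 7.79, 7.54 and 7.60 in CL and 7.78, 7.75 and 7.74 in CC. Both overlapped between the sections. Their 95% intervals, -0.24 to 0.13 for hda101 and -0.34 to 0.11 for HDA108, leave out the changes measured for hda102, hda110 and hda113, though a difference between these genes was not tested. The dim gene hda106 read 3.80, 4.04 and 4.01 in CL and 4.14, 3.86 and 3.73 in CC, a change of 0.04 whose sign turned after median centring.

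HD2-type deacetylases are a plant-specific family found in the nucleolus, and both hdt genes rose in CL. The gene hdt103 (NCBI gene 542355) read 9.85, 10.32 and 10.18 in CL, against 9.55, 9.31 and 9.15 in CC. No CL array came down to the CC range, and the change was 0.78 (SE 0.16; limma adjusted p = 0.0120). Of its 3 other probe sets, those with changes of 0.89 (SE 0.17) and 0.79 (SE 0.17) passed. The dimmest had a change of 0.29 (SE 0.12; limma adjusted p = 0.0974). The rise of hdt102 (NCBI gene 542636), also named HD2b, was 0.41 (SE 0.10; limma adjusted p = 0.0187), likewise without overlap.

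**Figure D3:**
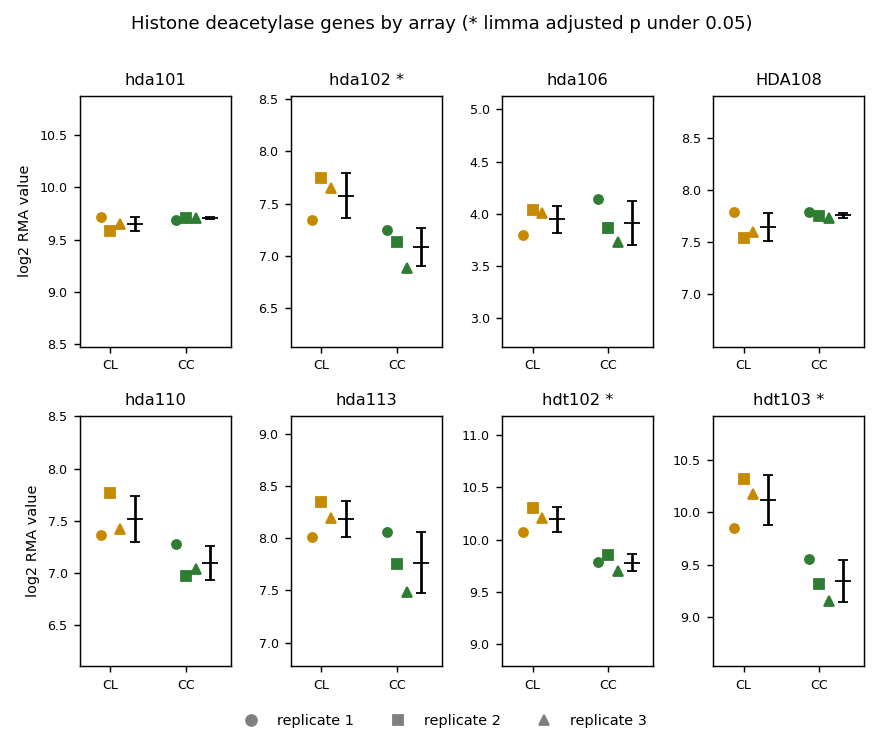
Log2 RMA values (y axis) of the 6 hda and 2 hdt genes, with 3 CL arrays left and 3 CC arrays right in each panel; marks show replicate numbers, black bars the mean ± SD, and a star a limma adjusted p under 0.05. Among the hda genes hda102 passed, with a change of 0.49, and both hdt genes did, with 0.41 and 0.78.

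Acetyltransferases add acetyl groups to histones, and adaptor proteins join them to their complexes. Of 5 genes, 0 rose and 0 fell by limma, and 0 did so at an unadjusted p under 0.05. The gene hag101, also named gcn5, had a change of 0.04 (95% interval -0.19 to 0.27), and its adaptor gene hxa102, also named ada2, one of 0.14 (95% interval -0.16 to 0.44). Changes of hac106, ham101 and hxa103 lay between -0.29 and 0.00. All 5 genes overlapped between the sections. Of the 2 sgb genes, which carry GNAT synonyms (an acetyltransferase family), sgb102 rose by 0.53 (SE 0.10; limma adjusted p = 0.0110), and sgb101 had a change of 0.17 (95% interval -0.03 to 0.37).

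Bromodomain proteins bind acetylated histones. Of 2 genes brd103 rose by 0.48 (SE 0.11; limma adjusted p = 0.0173), and gte102 had a change of 0.27 with an adjusted p of 0.0739. Both had all CL arrays above all CC arrays.

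SET-domain proteins, most of which methylate histone lysines, numbered 7, of which 2 rose and 0 fell by limma (2 and 0 at an unadjusted p under 0.05). The gene sdg118 (NCBI gene 542089) read 7.06, 7.55 and 7.48 in CL, against 6.99, 6.64 and 6.56 in CC. Its replicates 1 nearly met, and the change was 0.63 (SE 0.17; limma adjusted p = 0.0305). SDG123 rose by 0.38 (SE 0.10; limma adjusted p = 0.0283), and its adjusted p was 0.0578 after quantile normalization.

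The other 5 SET-domain genes overlapped between the sections. The gene with the smallest change among the sdg names, sdg110, read 6.28, 6.23 and 6.34 in CL and 6.64, 6.32 and 6.38 in CC. Its 4 probe sets gave changes of -0.16, 0.40, 0.00 and -0.23, none of which passed. The 2 probe sets of sdg113 gave 0.18 and -0.31, and neither passed. Among the set names, SET102 read 6.66, 6.98 and 6.81 in CL and 6.78, 6.46 and 6.56 in CC, a change of 0.22, and set105 read 8.13, 8.39 and 8.21 in CL and 8.35, 8.12 and 8.08 in CC, a change of 0.06. The gene SET104 had a change of -0.21 (95% interval -0.45 to 0.03).

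DNA methyltransferases numbered 3, of which dmt106 (NCBI gene 541971) rose. It read 4.85, 5.49 and 5.42 in CL, against 4.87, 4.18 and 4.14 in CC. Replicate 1 of both sections gave nearly the same value, with CL just below CC, while the other 4 arrays were far apart. The change was 0.85 (SE 0.25; limma adjusted p = 0.0383), and the adjusted p was 0.109 to 0.123 without CL replicate 2, CL replicate 3, CC replicate 2 or CC replicate 3. Among the called genes it is the 1 whose sections overlap.

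The gene dmt101, also named ZMET1, of the type that maintains CG methylation, read 5.87, 6.27 and 5.97 in CL and 6.01, 5.84 and 5.41 in CC. Its sections overlapped, and its change of 0.28 (95% interval -0.14 to 0.70) did not pass. DMT105, also named Zmet5, of the chromomethylase type, had a change of 0.29, and its 3 dimmer probe sets gave 0.04, 0.11 and 0.01; none of the 4 passed.

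Of 7 methyl-CpG-binding domain genes, 1 rose and 0 fell by limma (2 and 0 at an unadjusted p under 0.05). The gene mbd108 (NCBI gene 542070) read 7.44, 7.56 and 7.48 in CL, against 7.17, 7.02 and 7.02 in CC. Its arrays were tight within each section and did not overlap, with a change of 0.42 (SE 0.09; limma adjusted p = 0.0129). At the other end, mbd115 read 8.92, 8.87 and 8.91 in CL and 8.98, 8.87 and 8.83 in CC, a change of 0.01 (95% interval -0.18 to 0.20). The sections of mbd101 did not overlap, with a change of 0.28 and a limma adjusted p of 0.0630. Changes of mbd105, mbd106, mbd109 and mbd111 lay between -0.03 and 0.28, with overlap.

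Polycomb-related genes gave 0 calls among 2 by limma, and 0 at an unadjusted p under 0.05. The gene vef101, also named EMF-like, had a change of 0.34 (95% interval -0.10 to 0.78), and epl101, an enhancer-of-polycomb-like gene, one of 0.11 (95% interval -0.17 to 0.40). The genes cha101 (-0.21) and crd101 (0.10) did not pass either. Of the 3 genes without a chromatin name, IDP154 fell by 0.56 (SE 0.13) while hcf106 (-0.19) and hsp101 (0.69) did not pass.

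**Figure D4:**
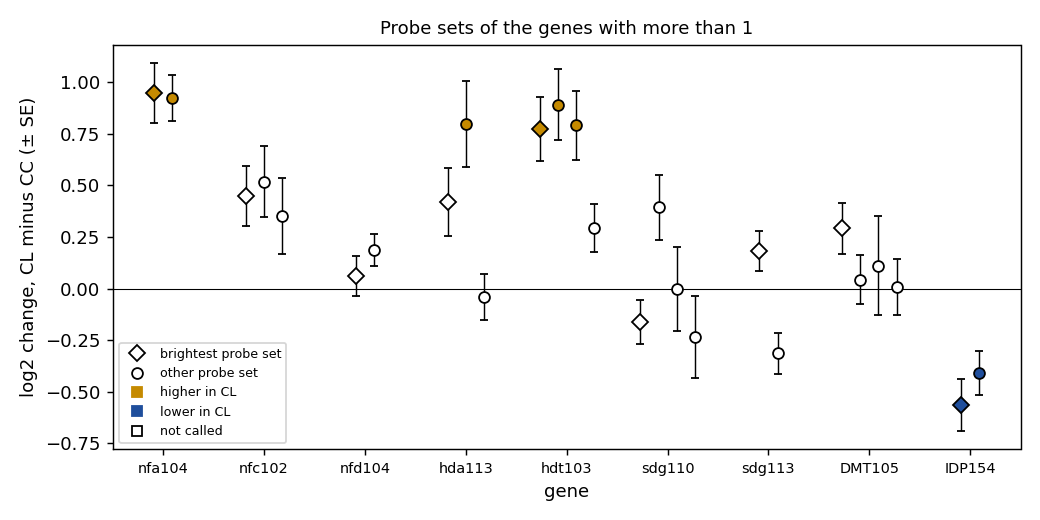
Log2 change (CL minus CC, y axis) ± SE of every probe set of the 9 genes with more than 1; diamonds mark the brightest probe set, filled symbols those with a limma adjusted p under 0.05. The probe sets of nfa104 lie together at 0.95 and 0.92, while those of sdg110 and sdg113 lie on both sides of 0. For hda113 only the dimmest probe set, at the dim end of the arrays, is below 0, at -0.04 beside 0.42 and 0.80.

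Replicates did not spread evenly. In 15 of the 17 called genes, replicate 1 was the CC array nearest to the CL mean, and in 16 of 17 replicate 1 was the CL array nearest to the CC mean. Over all 5457 called probe sets, replicate 1 held that place in 63.9% for CC and 66.3% for CL. For CC the exceptions were nfa104 and hdt102, where replicate 2 was nearest, and for CL the exception was nfa103, again with replicate 2. The small differences between the replicates 1 are seen best in dmt106, sdg118 and hda102.

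**Figure D5:**
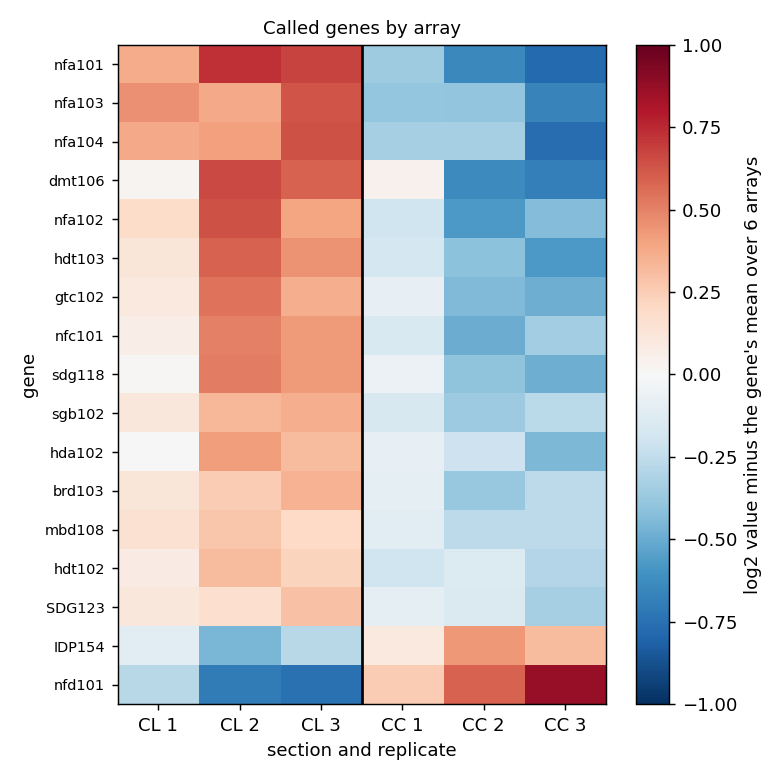
Log2 value minus the gene's mean over 6 arrays (colour) for the 17 called genes, in order of log2 change, with the 3 CL arrays left and the 3 CC arrays right of the line. CL 1 and CC 1 are paler than the other arrays in most genes, and nfd101 and IDP154 show the opposite colours to the 15 genes higher in CL.

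Of 40 genes that did not pass, 12 nevertheless had sections without overlap, 7 with CL above CC (17.5%) and 5 below (12.5%). Of the probe sets that did not pass, 10.2% had CL fully above CC and 16.8% fully below. Of all 57 genes, called ones included, 21 had CL fully above CC (36.8%) and 7 fully below (12.3%), against 22.9% above and 26.8% below over all probe sets. These shares were not tested. Intervals of the 40 genes had a median width of 0.52, and all but hsp101 had changes within 0.5 of 0.

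Other chromatin genes carry names outside the scheme. By symbol or synonym 19 such genes were matched (centromere, polycomb, histone, HMG, retinoblastoma-related, PCNA, methyltransferase, deacetylase and rmr names). Of these, 4 rose and 0 fell by limma, and 4 and 1 at an unadjusted p under 0.05. Over all probe sets 15.9% were higher and 15.2% lower, and among the 1108 genes 18.7% and 19.9%. The count of rises is near these shares and is no result about the 19 genes. The median change of the 19 was -0.01. The rises were those of CenpcA, a centromere protein gene, at 1.06 (SE 0.27), HMG I/Y-2 at 0.53 (SE 0.16), pcna2, a sliding clamp of DNA replication, at 0.51 (SE 0.12), and fie2, a polycomb gene, at 0.46 (SE 0.09). The polycomb genes mez1 (-0.02), mez2 (-0.26) and mez3 (-0.14), the histone gene his2b5 (-0.20) and the linker histone gene H1 (0.10) did not pass.

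Genes of dividing cells were measured beside the chaperones. Of 9 such markers, 3 rose, namely cycD2 at 0.73, pcna2 at 0.51 and cdc2 at 0.39, and 0 fell by limma (3 and 1 at an unadjusted p under 0.05). Called in either direction were 38.6% of the 1108 genes and 31.1% of all probe sets, the background for this list and those below. The count called is near these shares and is no result about the markers. The rise of pcna2 is also counted among the other chromatin genes. In the other direction, cycD1 read 4.26, 4.26 and 4.47 in CL, against 4.52, 4.80 and 5.17 in CC. Its sections did not overlap, and its change of -0.50 (SE 0.17) had a limma adjusted p of 0.0597. The summed log2 level of the 9 markers was 43.1 to 43.4 in CL and 41.6 to 42.7 in CC. Sums without overlap were not particular to dividing cells. Among the cell type lists below, mesophyll gave 48.2 to 48.3 in CL and 47.1 to 47.6 in CC. Bundle sheath gave 37.8 to 37.9 in CL and 38.2 to 38.3 in CC, and epidermis 17.1 to 17.9 in CL and 19.1 to 20.6 in CC. The vascular gene did not overlap either, while the sums of the other chromatin genes did. The largest changes behind the mesophyll, bundle sheath and epidermis sums were those of ppt1 (0.75), rca1 (-0.32) and gl1 (-1.73). The other mesophyll genes lay between -0.05 and 0.05, and the other bundle sheath genes between -0.08 and 0.03. For gl15 and gl8 of the epidermis the changes were -0.33 and -0.11. The markers cyc1, cyc2, cyc3 and MCM6 averaged 2.58 to 3.31 in CL and 2.72 to 3.31 in CC, at the dim end of the arrays, and did not pass. Markers of the leaf's own cell types passed in 1 of 4 genes for mesophyll (ppt1, higher; the gene with the symbol PDK1 and synonym pdlk1 is not the dikinase gene pdk1 and was left out), 1 of 3 for bundle sheath, 2 of 3 for epidermis and 1 of 1 for the vascular tissue (these 4 lower). The part of dividing cells, or of a shift between leaf cell types, in the rises of nfa101 to nfa104, gtc102 and the other chromatin genes was not tested.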

How the data were processed

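RNA of 3 CL and 3 CC samples (250 ng each) was labelled with biotin for arrays read from the 3' end of transcripts, per the labels. The authors deposited log2 expression values. The submitters' processing notes name RMA, limma and the Affymetrix Expression Console, with no versions. RMA corrects background, brings the arrays to 1 distribution and combines each set's probes, so differences between dim values are compressed. The table held 17555 probe sets with 0 missing values and array medians of 6.29 to 6.36. Arrays correlated at 0.989 to 0.995 inside a section and at 0.963 to 0.982 across sections. No detection call was used.

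Gene names came from an older array annotation joined by gene ID to a RefSeq table (assembly Zm-B73-REFERENCE-NAM-5.0), which held all 57 genes. CL was compared with CC by a linear model in limma 3.58.1 (R 4.3.3) with empirical Bayes variances. It had no block and no filter, ran on all probe sets, and was adjusted by Benjamini-Hochberg over all of them, with a threshold of 0.05. It was run on simulated data with independent noise on each array, which does not test the calls under the uneven replicates seen here. The p-values set the difference between CL and CC against the spread between arrays of the same section. The members, classes and lists were chosen with earlier results of these data known.

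Values of every array were given for the largest changes past 0.05 without overlap, for the members with the largest and smallest change of each prefix with 3 or more, and for the nfa, nfd and hda genes. Other called genes are named with their change, and values of further genes were chosen after they were seen. Alternatives were a replicate block, other variance models, scalings, filters, probe set averaging, array weights, adjustments and leaving out each array.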

Additional observations from a re-analysis of the deposited data

How the results depend on the processing

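The median change of the 57 genes stayed between 0.12 and 0.23 in all alternatives run. Counts of higher and lower genes moved by over 1.5 times in some. Array weights gave 27 higher and 6 lower, an adjusted p of 0.01 gave 4 and 1, and members matched by symbol alone (8 genes) gave 1 and 0. With 1 array left out, 4 to 18 genes were higher, 1 to 3 lower, and the median was 0.14 to 0.23. The falls were 1 without the dimmest 50% of probe sets and, as alternatives chosen after seeing the data, 1 without the names outside chromatin and 1 without probe sets ending in _s_at. Of the 17 called genes, 0 changed sign, and 4 (nfa101, nfa103, nfa104 and nfd101) passed in every alternative that gave a value, which leaves out the filter on the dimmest 50% for nfd101, and the removal of probe sets ending in _s_at for nfd101 and nfa104.

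A fit with the replicate number as a block called 3 higher and 1 lower, and nfa102 then had an adjusted p of 0.0570. Deviations from the section means correlated at -0.54, -0.35 and -0.39 between same-numbered arrays and at -0.01 to 0.39 between arrays of different numbers. Deviations cancel out within a section, so these values depend on one another and cannot show whether the numbers were pairs. The fit behind the calls had no block, since the labels name no pairs. What else same-numbered samples share is not given by the labels. No sample correlated best with its own number.

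Changes under each alternative were followed for 32 genes, the called ones and those picked by the rule for giving array values. The other genes were not followed, and their changes may turn sign too. Among the genes followed, changes of those that did not pass turned sign as follows. After median centring they were -0.018 for nfc103, -0.010 for nfd102, -0.0068 for hda106 and -0.038 for mbd115. After a further quantile normalization they were -0.024 for nfc103, -0.036 for nfd102, -0.0068 for nfd104, -0.021 for set105 and -0.054 for mbd115. With 1 array left out the changes reached from -0.0045 to 0.079 for nfc103, -0.040 to 0.075 for nfd102, -0.054 to 0.15 for hda106, -0.013 to 0.14 for set105 and -0.023 to 0.050 for mbd115. Median centring shifts each array by 1 value, so it lowered every gene's change by the same small amount, and small positive changes turned. The cause of the other turns was not tested. The number of arrays and the compression of dim values limit what can be seen for nfc104, nfd106 and hda106, the 3 genes that the filter on the dimmest 25% leaves out.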
